A study of Mus musculus with 6 samples.

Results

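The miR-99a, miR-100 and miR-125b strands and the passenger strand of let-7c-1 were followed in small RNA libraries of mouse GMLPs, a progenitor population sorted from bone marrow. The members were chosen by name. Of 7 strands named, 6 had a row among the 1184 miRNAs of the table: mmu-miR-99a-5p, mmu-miR-99a-3p, mmu-miR-100-5p, mmu-miR-125b-5p, mmu-miR-125b-2-3p and mmu-let-7c-1-3p, written below without the species prefix. mmu-miR-125b-1-3p had no row and was not analysed here. The L28BME group (n = 3) had the genotype LIN28B MLL-ENL and the ME group (n = 3) the genotype MLL-ENL, a fusion gene of acute leukaemia, so both groups carried the fusion and LIN28B set them apart. All cells were cultured for 3 days with DOX (doxycycline, a drug used to control inducible transgenes). The labels do not give the promoter of each transgene, the age of the mice or any pooling of animals. They do not say that the 3 libraries of a group came from separate mice either, so a p-value reflects only the variation among these libraries, part or all of which may be technical.

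These miRNAs are made from long host RNAs that each hold a miR-99 or miR-100 hairpin, a let-7 hairpin and a miR-125 hairpin. A hairpin yields a guide strand, which is loaded into Argonaute and represses mRNAs through its seed (bases 2 to 8), and a passenger or star strand, which is mostly degraded. LIN28B binds let-7 precursors and blocks their maturation, partly through a GGAG motif that its zinc knuckles recognise, and the neighbours in the same host RNA are not known as its substrates. In blood, miR-125b and the miR-99/100 family are known from stem cells and megakaryocytes, miR-125b drives leukaemia when overexpressed in mouse marrow, and Lin28a mRNA is a known target of miR-125.

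The mature strands are shown with the seed in capitals, because the seed sets which strands can share targets and because single bases separate several of them. The sequences are from RefSeq (GRCm38.p6), which held all 7 named strands. The miR-99/100 guides share one seed.
miR-99a-5p: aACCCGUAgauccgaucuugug
miR-100-5p: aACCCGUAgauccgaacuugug
miR-99b-5p: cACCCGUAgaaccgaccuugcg
Counted from the 5′ end, miR-99a-5p and miR-100-5p differ by the single substitution U16A, so a read with exactly that exchange as an error would match the other. miR-99b-5p, of the paralogous cluster, differs from miR-99a-5p at 4 bases (A1C, U11A, U16C and U21C).

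The miR-125 guides also share a seed, and miR-351-5p, encoded elsewhere on the X chromosome, carries it as well.
miR-125b-5p: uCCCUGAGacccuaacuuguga
miR-125a-5p: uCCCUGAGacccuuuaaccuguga
miR-351-5p: uCCCUGAGgagcccuuugagccug
miR-125b-5p is cut from 2 hairpins with the same guide sequence, and their star strands are what tells the hairpins apart.
miR-125b-2-3p: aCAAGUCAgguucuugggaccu
miR-125b-1-3p: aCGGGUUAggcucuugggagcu
let-7c-1-3p: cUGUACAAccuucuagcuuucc
let-7a-1-3p: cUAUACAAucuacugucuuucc
The star strands of Mir125b-2 and Mir125b-1 differ at 5 bases (A3G, A4G, C7U, U11C and C20G). let-7c-1-3p differs from let-7a-1-3p, whose letters also stand in the Mirlet7c-2 hairpin, at 5 bases, 1 of them in the seed (G3A).

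In GRCm38, Mir99a (chromosome 16, 77598936 to 77599000), Mirlet7c-1 (77599657 to 77599750) and Mir125b-2 (77646273 to 77646343) lie on the plus strand in introns of the long non-coding RNA Mir99ahg. Mirlet7c-1 starts 656 bases after Mir99a, and Mir125b-2 lies a further 46522 bases downstream. The parallel set of Mir100 (chromosome 9, 41531425 to 41531504), Mirlet7a-2 (41536716 to 41536811) and Mir125b-1 (41581926 to 41582002), also on the plus strand, lies in introns of 3110039I08Rik, which RefSeq names Mir100hg. The third set, Mir99b, Mirlet7e and Mir125a, lies on chromosome 17 inside Spaca6.

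Hairpins of Mir99ahg and Mir100hg are shown because GGAG, searched on the RNA's own strand and set in capitals, falls in different places in them.
Mirlet7c-1: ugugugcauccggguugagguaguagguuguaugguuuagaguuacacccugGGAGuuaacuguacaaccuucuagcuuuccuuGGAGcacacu
Mir99a: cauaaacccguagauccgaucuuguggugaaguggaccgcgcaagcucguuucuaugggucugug
Mir100: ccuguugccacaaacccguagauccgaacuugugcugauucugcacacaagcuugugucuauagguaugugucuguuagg
Mirlet7a-2: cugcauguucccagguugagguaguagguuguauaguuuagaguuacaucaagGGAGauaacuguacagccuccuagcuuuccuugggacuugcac
Mir125b-1: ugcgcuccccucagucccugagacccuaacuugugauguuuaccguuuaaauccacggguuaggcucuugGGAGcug
The Mirlet7c-1 hairpin held GGAG at bases 53 to 56, in the loop between the arms, and again at bases 85 to 88. Mir99a and Mir100 held none, and Mir125b-1 held GGAG at bases 71 to 74 and none in the loop. Mirlet7a-2 held GGAG at bases 54 to 57, after the letters of let-7a-5p and before those of let-7a-2-3p. Its loop was not delimited by annotation, which gave that hairpin only the let-7a-2-3p arm. The Mir125b-2 hairpin was not searched. Among hairpins outside these 2 host RNAs, Mirlet7c-2, the other source of let-7c-5p, held no GGAG. Mirlet7e held GGAG at bases 22 to 25 and, in the loop, at bases 52 to 55. Mir125a held it at bases 60 to 63, outside the loop. GGAG is common: 44.5% of all 1005 hairpins held it somewhere, 40.0% of the 100 hairpins of 90 to 98 bases did, and 8.07% of 644 hairpins with both arms annotated held it between the arms.

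The L28BME libraries held 2745970 to 4332618 reads and the ME libraries 4778027 to 5528960. Levels below are the authors' scaled values, in which 1 read was worth 0.189 to 0.312 in L28BME and 0.221 to 0.237 in ME. The listed members took 0.0338% ± 0.00177 of reads in L28BME and 0.0430% ± 0.0000708 in ME (SD, n = 3 each), so they are minor miRNAs of these cells. The myeloid markers miR-223 and miR-142a, 4 strands, summed to 155667 to 172385 in L28BME and 142398 to 168149 in ME. Of the 4, 1 was called lower in L28BME, miR-223-5p (log2 change -0.20, limma adjusted p = 0.0458), where 32.0% of all tested miRNAs were, and 3 were not called. Stromal and endothelial cells can also carry miR-99a and miR-125b. Their list (5 of 6 with a row) summed to 353 to 361 in L28BME and 189 to 208 in ME, nearly all of it miR-199a-3p, while miR-143-3p was at most 3.08 and miR-145a-5p at most 0.625 in any library. That sum was higher in L28BME, the opposite direction to the members, and miR-199a-3p was the only strand of the list tested. By means, miR-143-3p and miR-145a-5p also lay higher in L28BME. miR-10b-5p (1.73 in L28BME, 2.90 in ME) and miR-199a-5p (0.0789 in L28BME, 0.613 in ME) lay lower. The part of such cells in the levels of the members was not tested. The erythroid list summed to 9.68 to 10.8 in L28BME and 4.41 to 7.12 in ME, and 0 of its 4 strands were tested. Of these, miR-144-3p had 1, 3 and 1 reads in L28BME libraries 004, 005 and 006 and 0 in all ME libraries, too few to compare. Of 4 blood stem and progenitor markers, among which miR-126a is known from stem cells, 3 were called higher in L28BME, where 24.0% of all tested miRNAs were. Their log2 changes were 1.35 for miR-130a-3p, 0.68 for miR-126a-5p and 0.48 for miR-126a-3p (largest limma adjusted p of the 3 = 0.000232). miR-196b-5p, the most abundant of the 4, overlapped between groups, with means of 13839 in L28BME and 14080 in ME (log2 change -0.02, limma adjusted p = 0.811). That list summed to 24269 to 25631 in L28BME and 20104 to 23196 in ME without overlap, again the direction opposite to the members, and its part in their levels was not tested. Of the lymphoid markers 0 of 2 were called by limma, and of the epithelial, liver, muscle and neural markers 1 of 4 tested was lower, with sums of 179 to 194 in L28BME and 225 to 245 in ME.

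Among the miR-99/100 strands, miR-99a-5p fell about 2-fold with LIN28B, its star strand miR-99a-3p lay lower too, and miR-100-5p was near 0 in every library. miR-99a-5p, a guide known to repress Mtor in mammalian cells, measured 65.6, 54.5 and 54.0 in L28BME libraries 004, 005 and 006, against 97.6, 135 and 128 in ME libraries 001, 002 and 003. The groups did not overlap, and ME library 001 lay well under the other ME libraries. The means were 58.0 ± 6.56 in L28BME and 120 ± 20.0 in ME (SD, n = 3 each), 2.07-fold lower, and limma put the log2 change at -1.03 (SE 0.131, adjusted p = 1.63e-05). It had 173 to 347 reads per library in L28BME and 421 to 613 in ME, and the spread between ME libraries (CV 16.6%) was wider than the 4.37% that counting alone would give. In bulk libraries fewer cells that express a miRNA and less of it per cell cannot be told apart.

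Calls in this comparison were common. limma called 32.0% of the 387 tested miRNAs lower in L28BME and 24.0% higher, 56.1% in all (Benjamini-Hochberg adjusted p, threshold 0.05). Testing required 3 or more libraries with a value of 5 or higher. Of the 6 members with a row 4 were tested and all 4 fell, but let-7c-1-3p reached that level in ME alone, so its fall was in part fixed by the filter. The other 3, miR-99a-5p, miR-125b-5p and miR-125b-2-3p, reached it in all libraries. Among the 368 tested miRNAs outside the let-7 family, of which 28.5% were called lower, miR-99a-5p had the 5th lowest log2 change, miR-125b-5p the 19th and miR-125b-2-3p the 45th. All L28BME libraries lay under all ME libraries in 33.6% of tested miRNAs and above them in 27.9%, so groups without overlap made up 61.5%. The 4 tested members were among the lower ones.

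**Figure D1:**
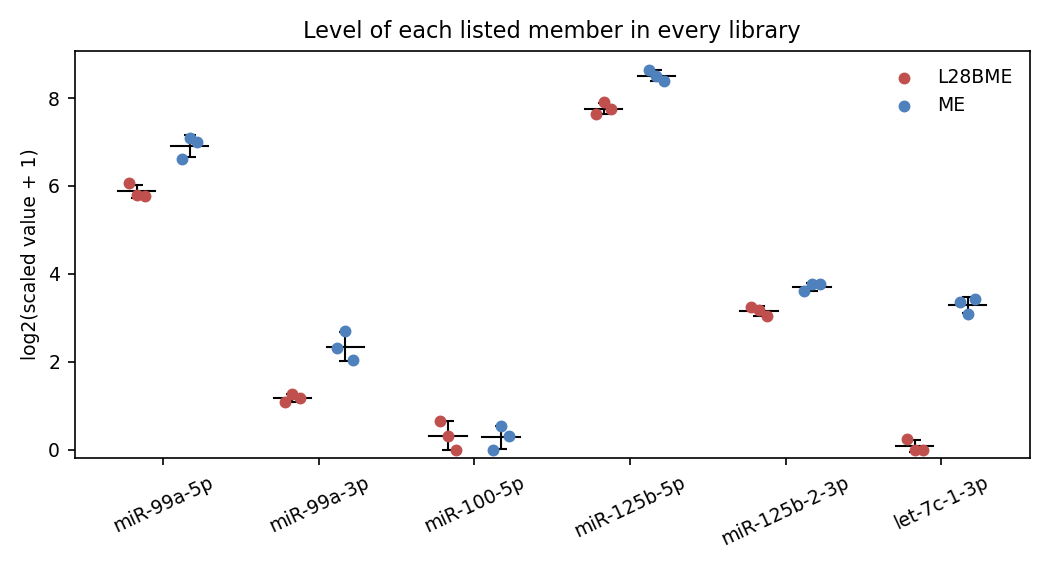
Level of the 6 listed members in each library, as log2(scaled value + 1), with L28BME (red) left of ME (blue); points are libraries and bars the mean and SD (n = 3). miR-99a-5p, miR-99a-3p, miR-125b-5p, miR-125b-2-3p and let-7c-1-3p lie lower in every L28BME library than in any ME library, while miR-100-5p lies near 0 in both groups.

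The star strand of the same hairpin, miR-99a-3p, had 6, 6 and 4 reads in L28BME libraries 004, 005 and 006, against 17, 25 and 13 reads in ME libraries 001, 002 and 003. In scaled values that was 1.27 ± 0.144 in L28BME and 4.18 ± 1.23 in ME (SD, n = 3 each), again without overlap. It was under the filter; without a filter, limma gave a log2 change of -1.17 (adjusted p = 0.00229), where 10.9% of 1184 miRNAs were called lower. From the pooled reads the level in ME was 3.35 times that in L28BME, with an exact 95% interval of 1.89 to 6.26 that covers counting error only. The star strand made up 2.09% of all miR-99a reads in L28BME (exact 95% interval 1.20 to 3.37, of 766 reads) and 3.38% in ME (2.55 to 4.37, of 1628 reads), intervals that overlap.

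miR-100-5p, which shares the miR-99a-5p seed, had 3, 1 and 0 reads in L28BME libraries 004, 005 and 006, against 0, 2 and 1 in ME libraries 001, 002 and 003. The groups overlapped, and the total of 7 reads allows no statement on a change: the pooled ratio of ME to L28BME was 0.730, with an exact interval of 0.107 to 4.32. Set beside its near-identical relative, miR-100-5p made up 0.531% of the miR-99a-5p and miR-100-5p reads in L28BME (0.145 to 1.35) and 0.190% in ME (0.0393 to 0.555). Reads of miR-99a-5p with a U to A error at base 16 were not told apart from miR-100-5p here. miR-100-3p, the star strand of that hairpin, was not analysed here and had no row.

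The miR-125b guide fell 1.69-fold, and the star strand of its Mir99ahg hairpin fell with the authors' scaling but kept no call under plain library size. miR-125b-5p, the most abundant member, measured 198, 239 and 213 in L28BME libraries 004, 005 and 006, against 399, 363 and 335 in ME libraries 001, 002 and 003. The highest L28BME library stayed well below the lowest ME library. The means of 217 ± 20.5 in L28BME and 365 ± 32.0 in ME (SD, n = 3 each) differed 1.69-fold, and the limma log2 change was -0.75 (SE 0.101, adjusted p = 2.72e-05). It ranked 118th among miRNAs in L28BME and 109th in ME, from 683 to 1048 and from 1411 to 1719 reads per library.

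Both Mir125b-1 and Mir125b-2 can give that guide. miR-125b-2-3p, the star strand of the Mir99ahg hairpin, measured 8.51, 8.05 and 7.18 in L28BME libraries 004, 005 and 006, against 11.1, 12.6 and 12.6 in ME libraries 001, 002 and 003, from 23 to 45 and from 48 to 57 reads. The groups did not overlap, with 7.91 ± 0.673 in L28BME and 12.1 ± 0.836 in ME (SD, n = 3 each), for which limma gave a log2 change of -0.56 (SE 0.159, adjusted p = 0.00932). Under plain library size the limma log2 change was -0.11 (adjusted p = 0.579). miR-125b-2-3p made up 3.59% of the miR-125b-2-3p and miR-125b-5p reads in L28BME (exact 95% interval 2.94 to 4.34). In ME it made up 3.20% (2.73 to 3.73), and the intervals overlap. Because the guide reads can come from both hairpins, this share does not measure strand use of Mir125b-2. With no row for miR-125b-1-3p, the share of miR-125b-5p that came from Mir125b-1 was not measured.

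let-7c-1-3p, the let-7 strand that Mirlet7c-1 alone encodes, was almost lost from L28BME, while let-7c-5p, which Mirlet7c-2 encodes as well, was 1.43-fold lower. let-7c-1-3p had 1, 0 and 0 reads in L28BME libraries 004, 005 and 006, against 40, 34 and 41 in ME libraries 001, 002 and 003. In scaled values these were 0.189, 0 and 0 in L28BME and 9.27, 7.50 and 9.73 in ME. No L28BME library came near the ME level. From the pooled 1 and 115 reads the level in ME was 112 times that in L28BME, with an exact 95% interval of 19.7 to 4461 for counting error only. On the log2(value + 1) scale, which understates the change of so scarce a strand, limma gave -3.21 (SE 0.255, adjusted p = 8.97e-08). This strand was tested only because it reached the filter in ME, so the limma result was in part fixed by the filter.

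let-7c-5p, the guide, can come from Mirlet7c-1 and from Mirlet7c-2 on chromosome 15. It measured 24521, 25313 and 26260 in L28BME libraries 004, 005 and 006, against 35631, 36771 and 36631 in ME libraries 001, 002 and 003. limma put its log2 change at -0.52 (SE 0.0678, adjusted p = 2.16e-05). Its levels fell far less than those of the star strand. Of the reads of both strands let-7c-1-3p was 0.000312% in L28BME (exact 95% interval 0.00000789 to 0.00174) and 0.0242% in ME (0.0200 to 0.0291), and these intervals do not overlap. A share within a library does not depend on how libraries are scaled.

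On the list of 12 let-7 star strands, 10 had a row and 9 were tested. All 9 were called lower, where 32.0% of tested miRNAs were, but 8 of them, let-7c-1-3p included, reached the filter in ME alone, so their direction was largely fixed by the filter and the count supports nothing. let-7a-1-3p reached it in both groups. That strand, the letters of which Mirlet7a-1 and Mirlet7c-2 share, measured 120 ± 17.4 in L28BME and 467 ± 67.3 in ME (SD, n = 3 each), 3.89-fold lower, the smallest fall of the 9 both by the ratio of means and by the fitted log2 change (-1.95).

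The strands were next set side by side by host RNA. In Mir99ahg the log2 changes were -1.03 for miR-99a-5p, -0.52 for let-7c-5p, -3.21 for let-7c-1-3p, -0.75 for miR-125b-5p and -0.56 for miR-125b-2-3p. Of these strands, let-7c-1-3p reached the filter in ME alone. Mirlet7a-2 of Mir100hg can give let-7a-5p, which is also cut from Mirlet7a-1. That guide fell by 6.18 on the log2 scale, to 644 ± 33.1 in L28BME against 46877 ± 3103 in ME (SD, n = 3 each). Strands that mark Mir100hg itself were scarce or had no row. miR-100-5p had 4 pooled reads in L28BME and 3 in ME. miR-100-3p, miR-125b-1-3p and let-7a-2-3p, which would mark the let-7 hairpin of Mir100hg, had no row. The part of Mir100hg in the levels of let-7a-5p and miR-125b-5p was not tested.

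In the paralogous cluster of Spaca6, 6 strands had a row and 4 were tested, of which 1 fell, 1 rose and 2 did not pass (median log2 change 0.11). Calls over all tested miRNAs were 32.0% lower and 24.0% higher. let-7e-5p fell to 14.1 ± 0.842 in L28BME, against 184 ± 6.67 in ME (log2 change -3.62, limma adjusted p = 1.99e-13). miR-99b-5p, with the seed of miR-99a-5p, measured 57.5, 78.1 and 54.7 in L28BME libraries 004, 005 and 006, against 44.1, 46.8 and 43.4 in ME libraries 001, 002 and 003. It rose by 0.48 in log2 units (SE 0.133, limma adjusted p = 0.00799), the direction opposite to miR-99a-5p. miR-125a-5p measured 119, 125 and 113 in L28BME and 140, 124 and 120 in ME, groups that overlap. Its log2 change of -0.10 had a 95% interval of -0.31 to 0.11 (limma adjusted p = 0.403), and plain library size turned it to 0.39 (limma adjusted p = 0.00204). miR-99b-3p had 0.32, with an interval of -0.16 to 0.80 (limma adjusted p = 0.236), and plain library size raised it to 0.72 (limma adjusted p = 0.00913). let-7e-3p and miR-125a-3p had at most 5 reads in any library.

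**Figure D2:**
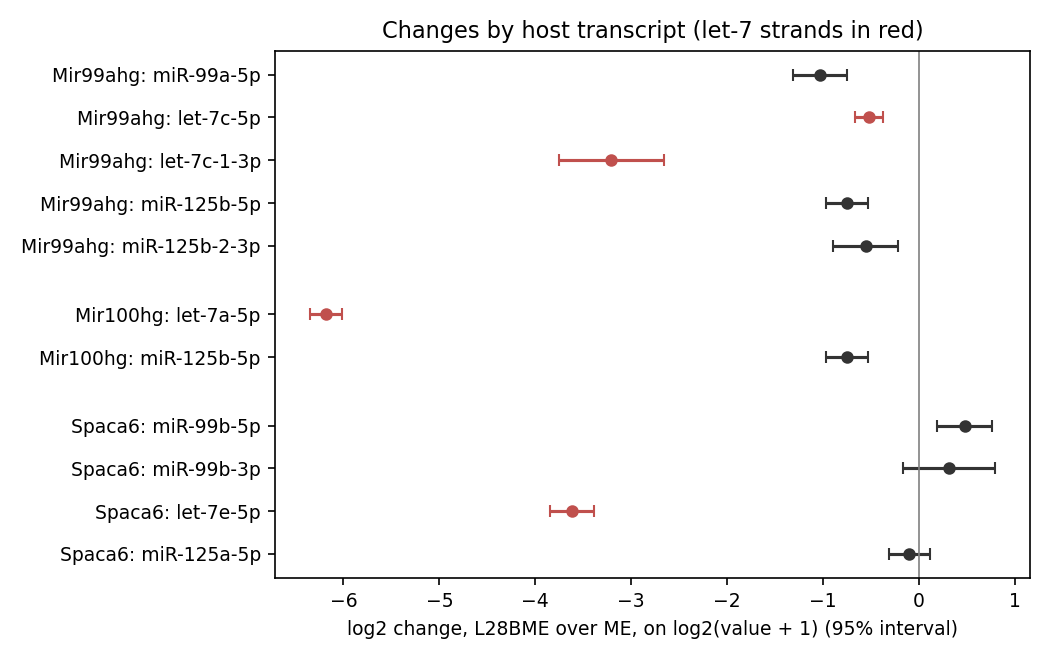
Log2 change of L28BME over ME, on log2(value + 1), with limma 95% intervals (n = 3 each), for the tested strands of the 3 host RNAs; let-7 strands are red and the others dark. miR-125b-5p is drawn under both of its hosts, and let-7a-5p and let-7c-5p also have hairpins outside the hosts shown. let-7c-1-3p reached the filter in ME alone. let-7a-5p, let-7e-5p and let-7c-1-3p lie at -6.18, -3.62 and -3.21, while miR-99, miR-125 and let-7c-5p strands lie between -1.03 and 0.48.

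Ratios within a library compare 2 strands without any scaling. With 3 against 3 libraries an exact two-sided permutation test cannot go below p = 0.1, so none of the 6 ratios computed could pass. After Benjamini-Hochberg adjustment over the 6, the exact permutation p-values ran from 0.2 to 0.3. miR-99a-5p over miR-99b-5p was 1.14, 0.697 and 0.989 in L28BME libraries 004, 005 and 006, against 2.22, 2.89 and 2.95 in ME libraries 001, 002 and 003. The guides of the miR-99 family were thus near parity in L28BME, and in every ME library miR-99a-5p was over 2 times as frequent in reads. The log2 difference was -1.53 (exact permutation p = 0.1). Capture of a miRNA depends on its sequence, so a ratio between different miRNAs is a ratio of reads, not of molecules.

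miR-125b-5p over miR-125a-5p was 1.66, 1.92 and 1.89 in L28BME libraries 004, 005 and 006, against 2.85, 2.94 and 2.79 in ME libraries 001, 002 and 003, a log2 difference of -0.65 (exact permutation p = 0.1). Here too the L28BME and ME libraries did not overlap. The geometric mean ratio in L28BME was 0.347 times that in ME for miR-99a-5p over miR-99b-5p and 0.636 times for miR-125b-5p over miR-125a-5p, where the guide miR-125b-5p may also come from Mir100hg.

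Ratios among the Mir99ahg strands differed by 0.23 to 0.64 in log2 units. let-7c-5p over miR-99a-5p averaged 442 ± 59.6 in L28BME and 308 ± 50.1 in ME (SD, n = 3 each), with every L28BME library above every ME library (log2 difference 0.52, exact permutation p = 0.1). let-7c-5p over miR-125b-5p averaged 118 ± 10.0 in L28BME and 100.1 ± 10.1 in ME (log2 difference 0.23, exact permutation p = 0.2). miR-125b-5p over miR-99a-5p averaged 3.78 ± 0.696 in L28BME and 3.13 ± 0.828 in ME (log2 difference 0.29, exact permutation p = 0.3). miR-99a-5p over miR-99a-3p averaged 46.5 ± 10.1 in L28BME and 30.2 ± 9.71 in ME (log2 difference 0.64, exact permutation p = 0.2). Groups overlapped in the last 3 ratios. Ratios with miR-100-5p or let-7c-1-3p were not computed, because a library had 0 reads.

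**Figure D3:**
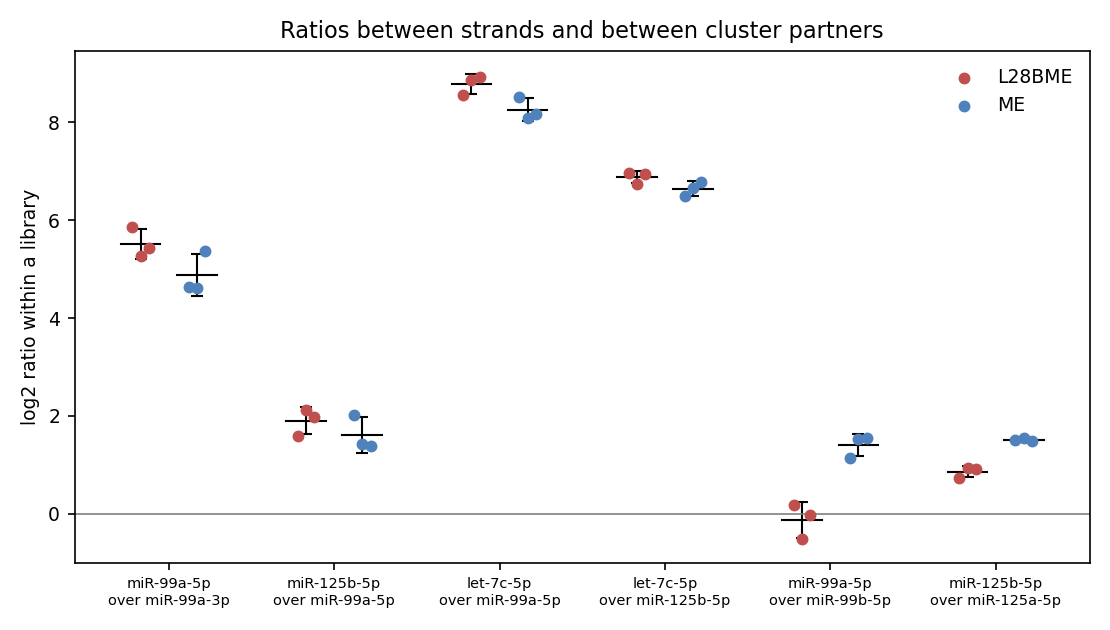
Log2 ratio of reads of 2 strands within each library, with L28BME (red) left of ME (blue); points are libraries and bars the mean and SD (n = 3). miR-99a-5p over miR-99b-5p and miR-125b-5p over miR-125a-5p lie lower in every L28BME library, let-7c-5p over miR-99a-5p lies higher in every L28BME library, and the other 3 ratios overlap.

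miRNAs with the same seed can bind the same sites, so the levels were also summed by seed, as a description with no test. The miR-99/100 family summed to 124, 133 and 109 in L28BME libraries 004, 005 and 006, against 142, 183 and 172 in ME libraries 001, 002 and 003. Its mean was 122 ± 12.2 in L28BME and 165 ± 21.1 in ME (SD, n = 3 each), 1.36-fold lower, less than the 2.07-fold of miR-99a-5p alone. miR-99a-5p made up 47.9% ± 6.23 of the family in L28BME and 72.5% ± 3.14 in ME, and miR-99b-5p 51.9% ± 6.32 in L28BME and 27.3% ± 3.25 in ME.

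The miR-125 family summed to 787 ± 67.6 in L28BME and 1131 ± 59.8 in ME (SD, n = 3 each), 1.44-fold lower. miR-351-5p was its largest part, at 57.3% ± 0.619 in L28BME and 56.3% ± 3.88 in ME. miR-351-5p itself fell by 0.50 in log2 units (SE 0.1005, limma adjusted p = 0.000986), to 451 ± 43.5 in L28BME against 637 ± 65.2 in ME. miR-125b-5p made up 27.5% ± 0.446 of the family in L28BME and 32.4% ± 3.04 in ME. As plain CPM, reads over the library's own total, the sums were 145 ± 15.8 in L28BME and 139 ± 19.4 in ME for miR-99/100, and 934 ± 70.9 in L28BME and 953 ± 77.5 in ME for miR-125.

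**Figure D4:**
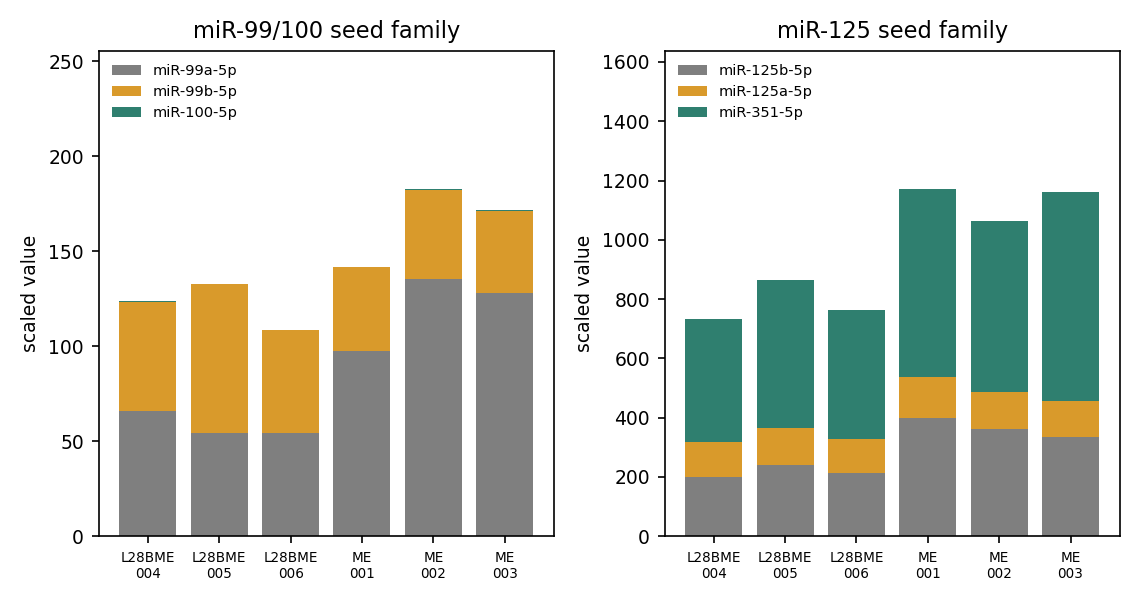
Scaled value of each miRNA of the miR-99/100 seed family (left) and the miR-125 seed family (right), stacked per library, with the L28BME libraries left of the ME libraries. miR-99a-5p is the larger part in ME and about equal to miR-99b-5p in L28BME, and miR-351-5p is the largest part of the miR-125 family in every library.

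The size of the falls depended on how libraries were scaled. let-7 strands took 91109 to 140402 reads in L28BME libraries and 1312930 to 1457691 in ME libraries, and the total of reads outside let-7 as the scale gave a median log2 change of 0.08 over all tested miRNAs. Plain library size moved the median log2 change of all tested miRNAs to 0.46, against -0.01 with the authors' scaling, and then 8.53% of tested miRNAs were called lower. Of all calls 88.0% were then higher in L28BME, against 42.9% with the authors' scaling and 57.1% with the total outside let-7. Under it miR-99a-5p still fell, by 0.54 in log2 units (limma adjusted p = 0.00190), with 69.1 ± 9.56 CPM in L28BME and 101 ± 18.1 in ME (SD, n = 3 each). miR-125b-5p also still fell, by 0.26 (limma adjusted p = 0.0223), with 257 ± 20.9 CPM in L28BME and 307 ± 18.8 in ME. let-7c-5p then had a log2 change of -0.02 (limma adjusted p = 0.757) and, like miR-125b-2-3p, lost its call. let-7c-1-3p fell by 2.97 and miR-99b-5p rose by 0.96.

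**Figure D5:**
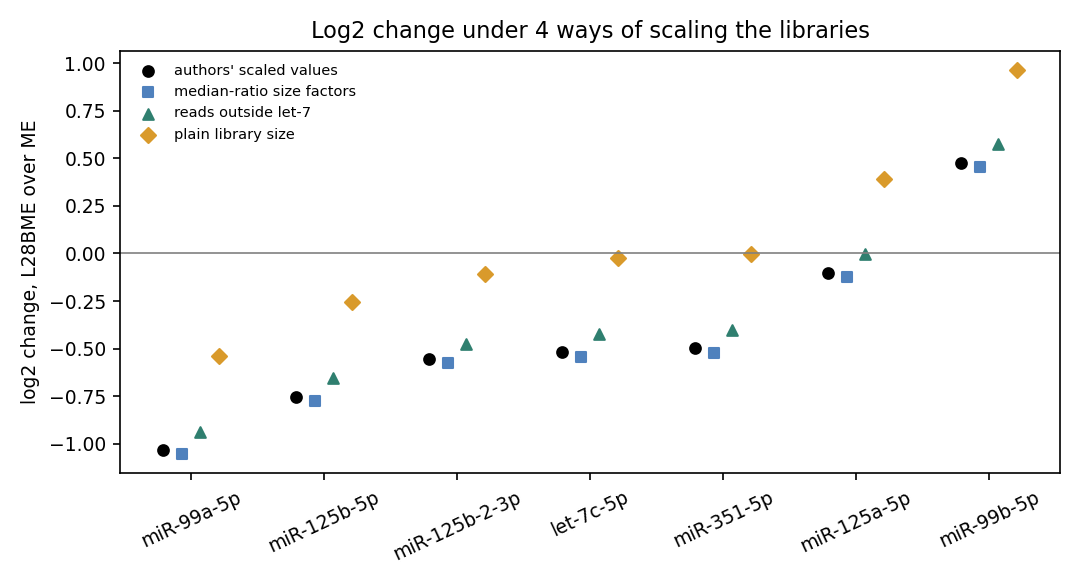
Log2 change of L28BME over ME for 7 strands under 4 scalings: the authors' scaled values, median-ratio size factors, the total of reads outside let-7 and plain library size. miR-99a-5p and miR-125b-5p lie below 0 under all 4, miR-99b-5p above 0 under all 4, and plain library size moves miR-125b-2-3p, let-7c-5p and miR-351-5p to between -0.11 and 0.

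The authors' deposited table gave the same directions for these members, but it rests on the same 6 libraries and is no independent support. The log2 fold changes in the authors' deposited table were -1.05 for miR-99a-5p (FDR 2.57e-11), -0.75 for miR-125b-5p (FDR 3.88e-11), -0.59 for miR-125b-2-3p (FDR 0.0329) and -1.73 for miR-99a-3p (FDR 0.000954). For let-7c-1-3p the authors' deposited table had -6.43 (FDR 9.09e-06) and for miR-100-5p 0.36 (FDR 0.838). An FDR under 0.05 with a fall was given to 8.33% of the 1452 features in the authors' deposited table.

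The miRNAs with the most similar profiles were found by the root-mean-square difference over the 6 libraries, on log2(value + 1) centred on each miRNA's own mean. Nearest to miR-99a-5p were miR-221-5p (0.124), miR-30a-5p (0.148) and miR-879-3p (0.157), whose log2 changes were -0.93, -1.07 and -1.13. Nearest to miR-125b-5p were miR-147-5p (0.110), miR-6412 (0.115) and miR-139-5p (0.119), with log2 changes of -0.56, -0.74 and -0.58. Nearest to miR-125b-2-3p were miR-221-3p (0.0537), miR-30d-5p (0.0575) and miR-155-5p (0.0674), with log2 changes between -0.54 and -0.50. For let-7c-1-3p the nearest outside let-7, miR-7676-3p, was 0.679 away, and miR-879-3p and miR-146b-3p were 1.06 away each. With 2 groups of 3 libraries these distances mostly reflect the size of the change between groups.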

How the data were processed

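Small RNA libraries were made from total RNA with the QIAseq miRNA kit, per the labels' protocols, and the build was GRCm38, per the submitters' processing notes. No label or header names the aligner, the counter or how molecular identifiers were used. The authors deposited 1 table of 1184 miRNAs and 268 piRNAs. Its 6 library columns are CPM per the file headers, but their sums run from 819079 to 1220362, so the deposited values are treated as a signal scaled by the authors. 100% of values were whole multiples of the smallest in their library (tolerance 0.001), so whole reads were recovered. The authors also deposited p-values, log2 changes and a signed fold, treated as a score, per the file headers, which name no tool.

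limma 3.58.1 (trend, R 4.3.3) was run on log2(value + 1) over all tested miRNAs, two-sided, with Benjamini-Hochberg adjustment. edgeR 4.0.16 and DESeq2 1.42.0 on the recovered reads were alternatives, and edgeR used those same TMM factors. On those reads edgeR called 210 of 387 miRNAs (120 lower, 90 higher). The code was tested on simulated data. Columns carry a group and a library number but no replicate number. The members, lists, tests and alternatives were chosen with earlier results of these data known. The rule names the members, the listed strands and the 3 nearest profiles of each tested member, and listed strands not singled out are given as counts. The 95% intervals of shares are exact (Clopper-Pearson) and hold counting error alone. piRNA rows were left out.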

Additional observations from a re-analysis of the deposited data

How the results depend on the processing

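No paired analysis was possible because no replicate number stands in the column names; the fit with a block was left out. Of the members 4 were called lower and 0 higher, where 32.0% of the 387 tested miRNAs were called lower and 24.0% higher. let-7c-1-3p, 1 of the 4, reached the filter in ME alone. The counts of lower members ran from 3 to 5 over the other settings and from 3 to 4 with each library left out. None was called higher in any. Without a filter the count was 5, where 10.9% of 1184 miRNAs were called lower. Plain library size gave 3, where 8.53% of tested miRNAs were. let-7c-1-3p dropped out with any ME library left out because the filter then left it untested. Of all tested miRNAs 124 were called lower, against 33 with plain library size, and 93 higher, against 242. Plain library size ended the calls of miR-125b-2-3p, let-7c-5p and miR-351-5p (log2 change -0.0017), brought miR-99b-3p past the threshold (0.72, limma adjusted p = 0.00913), and turned miR-125a-5p to 0.39 (limma adjusted p = 0.00204). With each library left out, the log2 change of miR-99a-5p ran from -1.17 to -0.94, of miR-125b-5p from -0.82 to -0.69 and of miR-125b-2-3p from -0.61 to -0.50 (largest limma adjusted p = 0.0472), and all stayed called. The fall of let-7c-1-3p ran from -6.70 with DESeq2 to -1.45 with a pseudocount of 5. Each of the 6 ratios kept its direction. Depth limits miR-100-5p, miR-99a-3p and let-7c-1-3p.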
